A study of Mus musculus with 12 samples.

Results

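The 10 genes described here belong to the ATF4 stress response and to serine, asparagine and mitochondrial folate metabolism, and were read out in mouse ventricles after chronic hypoxia. They were taken by symbol from a table of 39210 genes: the transcription factors Atf4, Atf5 and Ddit3, their targets Trib3 and Chac1, and the enzymes Phgdh, Psat1, Asns, Mthfd2 and Aldh1l2. All 10 were found and all 10 had enough reads to be tested. Hypoxic females and hypoxic males of the C57BL/6 strain breathed oxygen that was stepped down by 1% a day over 14 days to 7% and then held there for 2 weeks. Normoxic females and normoxic males of the same strain stayed in room air with 20.9% oxygen for 4 weeks. Each of the 4 groups had 3 libraries, made from total RNA of frozen ventricular tissue. The labels give neither an age nor a genetic change, and do not say which ventricle a sample came from.

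ATF4 is a transcription factor whose message is translated more when phosphorylation of the initiation factor eIF2 slows the translation of most others. Starvation for amino acids, misfolded protein in the endoplasmic reticulum, haem shortage and mitochondrial stress can each lead to that phosphorylation. ATF4 then turns on genes for the import and synthesis of amino acids, among them the pathway that makes serine from a glycolytic intermediate and the mitochondrial enzymes that pass the serine carbon to folate. In mouse heart this programme is best known from mitochondrial disease models. Messenger RNA alone does not report ATF4 protein, since much of its control is at translation.

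Library totals ran from 14915830 to 19397851 estimated counts, and 13960 genes passed the filter on low counts. Levels of a gene across libraries are given in CPM, counts scaled to the library size, and levels of different genes side by side in TPM, which is also scaled to transcript length. Whether each library is a separate animal is not stated in the labels, so the p-values here reflect the spread between samples, which may be technical. Markers of ventricular cardiomyocytes were present in all 12 libraries. Male hypoxia libraries 2 and 3 stood apart through some atrial and fat cell genes. The atrial light chain gene Myl7 reached 57.9 and 54.1 CPM there, against at most 0.781 CPM elsewhere. The fat cell gene Cfd reached 16.7 and 12.3 CPM, against at most 1.04 CPM elsewhere. Myl4, Sln, Dkk3, Adipoq, Cidec and Retn were also highest in these libraries, with Myl4 at 91.8 and 69.0 CPM, against at most 4.5 CPM elsewhere. Fabp4 was higher there by a small margin, at 1180 and 1070 CPM, against at most 1020 CPM elsewhere. Stard10, Nppa, Bmp10, Plin1, Ucp1, Lep and Adipor2 did not set them apart. Stard10 had 17.6 and 11.3 CPM there, against 7.51 to 24.4 CPM elsewhere, and Plin1 and Lep were at 0 in both. Nppa was higher in female hypoxia library 3 (1050 CPM) than in male hypoxia library 3 (797 CPM). The summed CPM of 8 immediate early genes was 775 in female normoxia library 3, against 99.3 to 238 in the others. Female hypoxia library 1 lay nearest to normoxia on the first principal component, at -2.68, where the other hypoxia libraries lay between -47.2 and -16.9 and the normoxia libraries between 20.6 and 40.3. On the second component female normoxia library 3 lay far from the rest, at -69.7, with all others between -14.7 and 20.9. The calls among the 10 genes are also given without male hypoxia libraries 2 and 3 and female normoxia library 3.

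Averaged over both sexes, 6 of the 10 genes rose in hypoxia and 1 fell. Those that rose were Atf4, Atf5, Ddit3, Asns, Psat1 and Phgdh, and the one that fell was Aldh1l2. Mthfd2 missed the threshold, and Trib3 and Chac1 did not pass either. Among all tested genes 15.0% were called higher and 12.9% lower, 27.9% in either direction, so a call in this contrast was common. The median log2 change was 0.52 over the 10 genes and -0.01 over all genes tested. Here and below, a call is an adjusted p under 0.05 in edgeR's quasi-likelihood test over all genes. In bulk tissue, fewer cells of a type and less RNA per cell cannot be told apart.

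**Figure D1:**
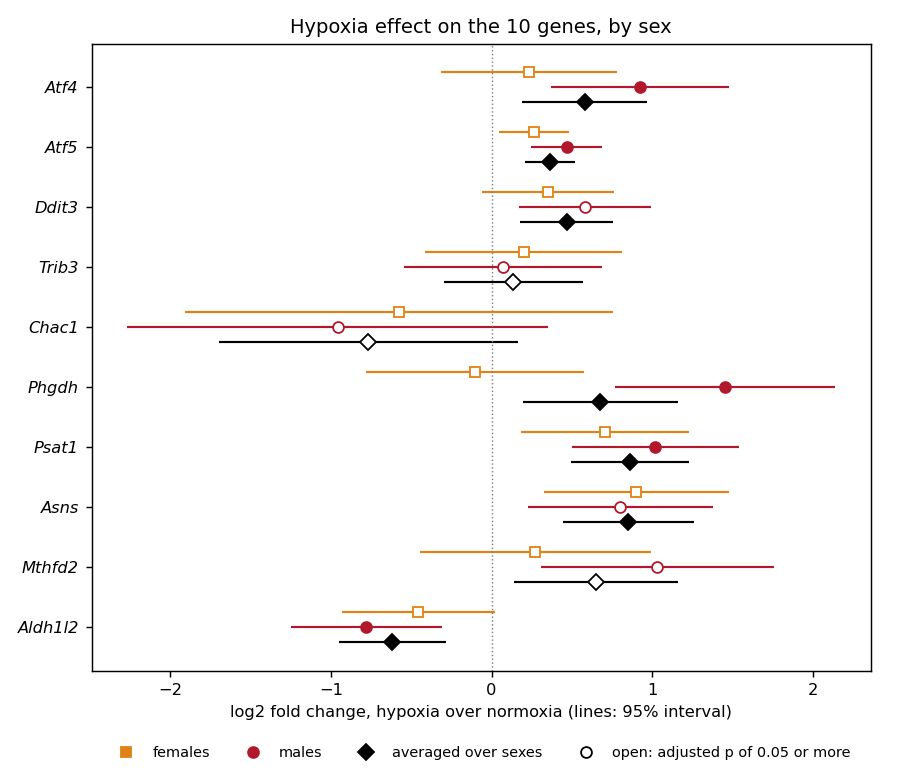
Log2 fold change of hypoxia over normoxia for each of the 10 genes, in females, in males and averaged over the sexes; lines are 95% intervals and filled markers passed an adjusted p under 0.05. No female marker is filled, and the Phgdh markers lie far apart, at -0.11 in females and 1.46 in males.

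Atf4 itself was the most abundant of the 10 genes, with a mean of 44.7 TPM over the 12 libraries. It stood at 104, 117 and 117 CPM in hypoxic females, against 69.1, 68.2 and 149 CPM in normoxic females. In hypoxic males it stood at 139, 135 and 126 CPM, against 61.8, 69.3 and 79.9 CPM in normoxic males. The male groups did not overlap. The female groups did, because normoxia library 3, the library with the high immediate early genes, held the highest value of all 12. The averaged log2 change was 0.58 ± 0.177 (SE, adjusted p = 0.0312), made up of 0.24 in females (adjusted p = 0.598) and 0.92 in males (adjusted p = 0.0313). Without female normoxia library 3 the averaged change was 0.82 (adjusted p = 0.000155) and the female change 0.71 (adjusted p = 0.00963). With 1 library left out at a time, the averaged call held in 3 of 12 fits (without male normoxia library 3, female hypoxia library 1 or female normoxia library 3), and in the other 9 the adjusted p was at most 0.0732. The male call was lost on leaving out any 1 of the 6 male libraries (adjusted p up to 0.11).

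Atf5, a related factor under the same translational control, averaged 29.7 TPM. It had 74.2, 83.2 and 86.1 CPM in hypoxic females, against 65.2, 64.5 and 73.0 CPM in normoxic females. Hypoxic males had 75.3, 91.3 and 81.4 CPM, against 55.4, 61.9 and 62.2 CPM in normoxic males. All hypoxia libraries lay above all normoxia libraries of the same sex. Its averaged change was the smallest of the 7 that passed, 0.37 ± 0.0711 on the log2 scale (SE, adjusted p = 0.00405), and it held in 12 of 12 fits that left out a library. Its log2 change was 0.26 in females (adjusted p = 0.132) and 0.47 in males (adjusted p = 0.0129), and the male call was lost without male hypoxia library 2 (adjusted p = 0.0526) or male normoxia library 1 (adjusted p = 0.0596).

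Ddit3 encodes CHOP, a factor that acts with ATF4 and is linked to cell death under lasting stress. It averaged 20.4 TPM. Hypoxic females had 28.8, 18.9 and 19.6 CPM, against 16.1, 17.8 and 18.6 CPM in normoxic females. Hypoxic males had 29.1, 18.1 and 26.1 CPM, against 16.3, 16.1 and 16.6 CPM in normoxic males. The groups did not overlap in either sex, but the gap was narrow: hypoxic female library 2 lay just above normoxic female library 3, and hypoxic male library 2 just above the normoxic males. The averaged log2 change was 0.47 ± 0.133 (SE, adjusted p = 0.0233), with 0.35 in females (adjusted p = 0.272) and 0.58 in males (adjusted p = 0.0586). The averaged call was lost without male hypoxia library 3 (adjusted p = 0.056) or female normoxia library 1 (adjusted p = 0.051). In an older mouse annotation Ddit3 overlaps the methionyl-tRNA synthetase gene on the opposite strand, and the strand setting of the counting is not given in the sources used here, so reads of the pair may not be told apart.

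Trib3 and Chac1 are targets further down. Trib3 encodes a pseudokinase that feeds back on ATF4 and CHOP, and Chac1 an enzyme that degrades glutathione; in cultured cells both are induced strongly by the pathway. Trib3 ranged from 3.14 to 4.79 CPM in hypoxic females, against 2.51 to 4.32 CPM in normoxic females, and from 2.91 to 4.44 CPM in hypoxic males, against 2.72 to 4.47 CPM in normoxic males. Its averaged log2 change was 0.14, with a 95% interval of -0.30 to 0.57 (adjusted p = 0.642). Chac1 had 2.01, 3.56 and 1.98 CPM in hypoxic females, against 5.80, 4.85 and 0.617 CPM in normoxic females. It had 2.58, 4.10 and 2.70 CPM in hypoxic males, against 9.12, 5.44 and 3.76 CPM in normoxic males. Both genes overlapped between oxygen levels in both sexes, and the Chac1 value of normoxic female library 3 rests on 10 counts. The averaged log2 change of Chac1 was -0.77 ± 0.426 (SE, adjusted p = 0.199, 95% interval -1.70 to 0.17). Without female normoxia library 3, the library in which Atf4 was highest and Chac1 lowest, it was -1.02 and passed (adjusted p = 0.0147).

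**Figure D2:**
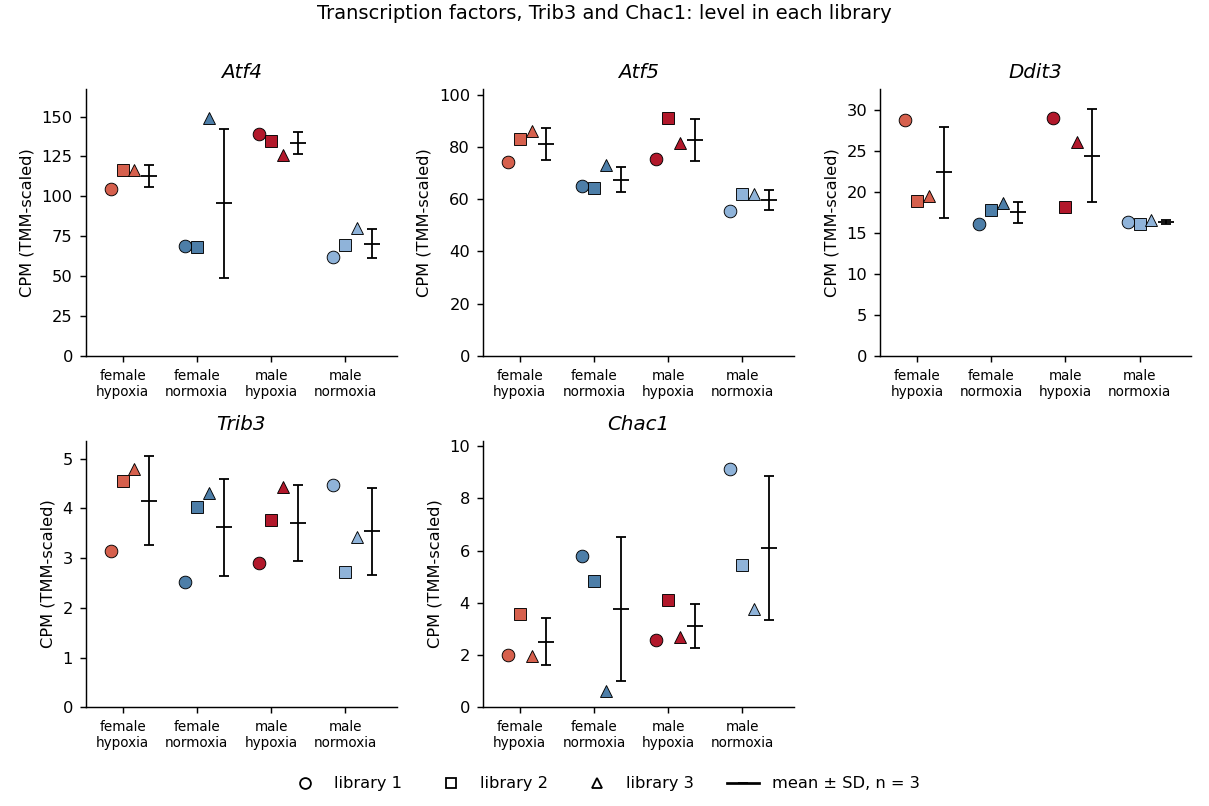
Level in CPM (TMM-scaled) of Atf4, Atf5, Ddit3, Trib3 and Chac1 in each library; symbols mark libraries 1 to 3 of a group and bars the mean ± SD (n = 3). Normoxic female library 3 has the highest Atf4 value, 149 CPM, and the lowest Chac1 value, 0.617 CPM.

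Serine synthesis starts with Phgdh, which oxidises 3-phosphoglycerate, and goes on with Psat1, which adds the amino group. Psph, the gene of the last step, is not among the 10 and was named after its values were seen. It was not called in females (0.38, adjusted p = 0.348) or in males (0.06, adjusted p = 0.888). Phgdh itself was scarce, with a mean of 0.769 TPM and 15 to 60 estimated counts per library. Hypoxic females had 1.54, 1.21 and 1.82 CPM, against 2.06, 1.93 and 0.925 CPM in normoxic females. Hypoxic males had 2.85, 2.86 and 2.96 CPM, against 1.01, 0.979 and 1.17 CPM in normoxic males. The male libraries fell into 2 tight and separate sets, whereas the female libraries overlapped and none reached the hypoxic males. Phgdh rose by 1.46 ± 0.313 in males on the log2 scale (SE, adjusted p = 0.0129), the largest change of the 10 genes in either sex, and it was called in 12 of 12 fits that left out a library. In females its log2 change was -0.11 ± 0.309 (adjusted p = 0.869). The averaged change of 0.67 (adjusted p = 0.0398) is a mean of unlike values, and its call held in 4 of 12 fits that left out a library, those without female hypoxia library 2 or any 1 of the normoxic females.

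Psat1 was called in the averaged contrast and in males. Hypoxic females had 3.55, 5.48 and 5.31 CPM, against 3.67, 2.16 and 2.96 CPM in normoxic females. Hypoxic males had 5.30, 5.77 and 6.58 CPM, against 2.96, 3.21 and 2.53 CPM in normoxic males. The male groups were apart, and the female groups overlapped only through hypoxic library 1, which lay just under normoxic library 1. The averaged log2 change was 0.86 ± 0.168 (SE, adjusted p = 0.00409). It was 0.71 in females (adjusted p = 0.0975; 0.0305 without female hypoxia library 1) and 1.02 in males (adjusted p = 0.017). The male call was lost without male hypoxia library 3, male normoxia library 1 or male normoxia library 3 (adjusted p up to 0.0665).

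Asns makes asparagine from aspartate and glutamine and is a textbook ATF4 target. Hypoxic females had 4.20, 5.92 and 6.72 CPM, against 3.09, 3.51 and 2.41 CPM in normoxic females. Hypoxic males had 3.51, 5.48 and 5.66 CPM, against 3.46, 2.45 and 2.53 CPM in normoxic males. All hypoxia libraries lay above the normoxia libraries of their sex, hypoxic male library 1 by a small margin. Asns was the member with the largest change in females, 0.90 ± 0.262 on the log2 scale (SE, adjusted p = 0.0638), and it had a similar value in males, 0.80 ± 0.263 (adjusted p = 0.0607). Neither passed alone, though the female change did without hypoxic library 1 (1.08, adjusted p = 0.0244) and the male change without hypoxic library 1 (0.99, adjusted p = 0.0311). The average over the sexes was 0.85 ± 0.185 (SE, adjusted p = 0.00691) and passed in 12 of 12 fits that left out 1 library, as did that of Psat1. Without male hypoxia libraries 2 and 3 together the averaged change of Asns was 0.61 and no longer passed (adjusted p = 0.104), and the male change was 0.32 (adjusted p = 0.715).

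Mthfd2 and Aldh1l2 are mitochondrial folate enzymes that work in sequence on the carbon taken from serine. Mthfd2, which oxidises methylene-tetrahydrofolate, had 3.20, 4.60 and 4.95 CPM in hypoxic females, against 5.61, 2.52 and 2.47 CPM in normoxic females. Hypoxic males had 5.69, 4.34 and 6.22 CPM, against 3.08, 2.77 and 2.07 CPM in normoxic males. The male groups were apart and the female groups were not, because of normoxic female library 1. The averaged change of 0.65 ± 0.233 just missed the threshold (SE, adjusted p = 0.057) and was 0.90 (adjusted p = 0.00862) without that library and 0.74 (adjusted p = 0.0373) without female hypoxia library 1.

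Aldh1l2, which oxidises formyl-tetrahydrofolate to carbon dioxide and NADPH, was the one member that fell. Hypoxic females had 6.22, 4.22 and 3.75 CPM, against 7.60, 6.84 and 4.995 CPM in normoxic females. Hypoxic males had 5.69, 5.15 and 6.07 CPM, against 9.31, 10.99 and 8.74 CPM in normoxic males. The male groups did not overlap and the female groups did. The averaged log2 change was -0.62 ± 0.152 (SE, adjusted p = 0.0121). It was called in males (-0.78, adjusted p = 0.0318) until any 1 of the 6 male libraries was left out (adjusted p up to 0.105), and was -0.46 in females (adjusted p = 0.221; 0.0478 without female hypoxia library 1). Per length the difference was smaller: the deposited effective transcript length of Aldh1l2 averaged 4305 bases in hypoxic females, against 5197 in normoxic females, and 4799 in hypoxic males, against 5322 in normoxic males. With those lengths as offsets the averaged change was -0.41 (adjusted p = 0.0902). On log2(TPM + 0.5) it was -0.07, which is -0.29 relative to the median gene, since that scale moves the median of all genes by 0.23. In an older mouse annotation a protein-coding gene lies across it on the opposite strand.

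**Figure D3:**
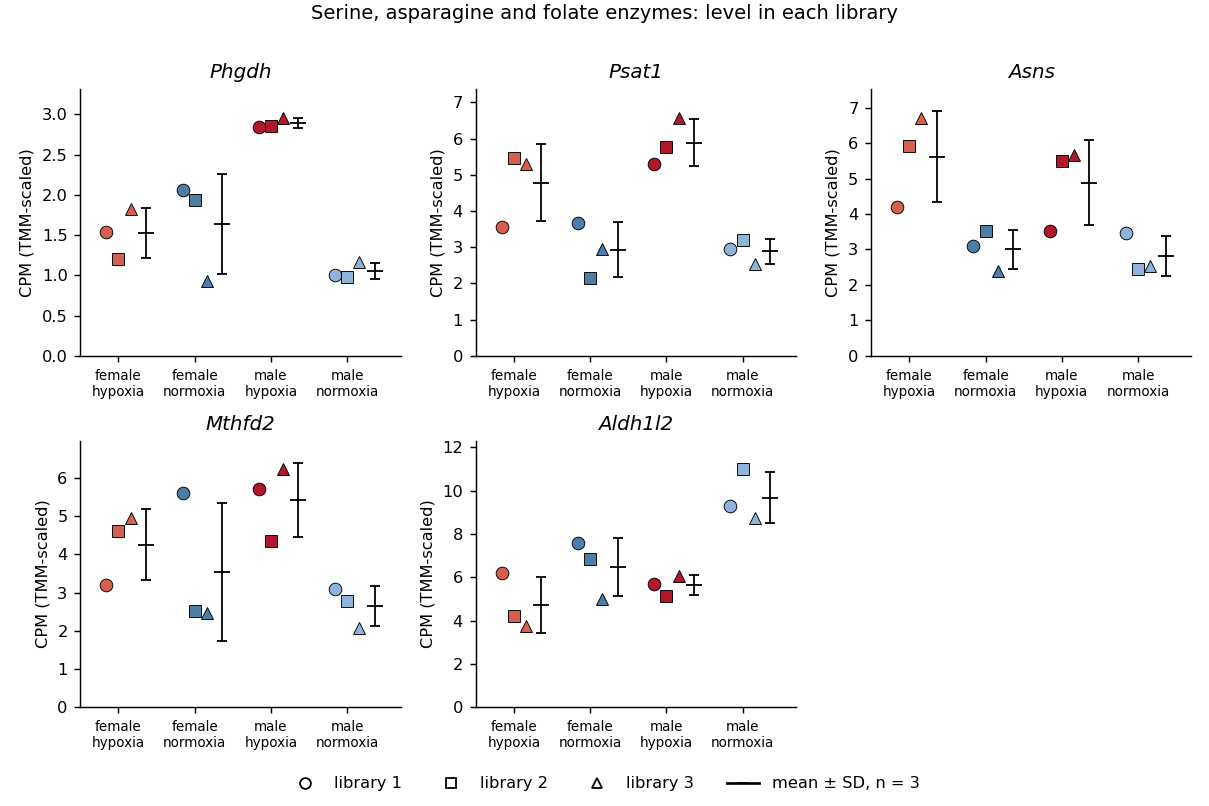
Level in CPM (TMM-scaled) of Phgdh, Psat1, Asns, Mthfd2 and Aldh1l2 in each library; symbols mark libraries 1 to 3 of a group and bars the mean ± SD (n = 3). Hypoxic males lie above normoxic males for the first 4 genes, and under them for Aldh1l2.

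Per length, the 10 genes formed 2 tiers. Atf4, Atf5 and Ddit3 averaged 44.7, 29.7 and 20.4 TPM. The other 7 lay between 0.769 TPM for Phgdh and 1.82 TPM for Asns, with Chac1 at 1.70, Mthfd2 at 1.45, Psat1 at 1.44, Trib3 at 1.41 and Aldh1l2 at 0.819 TPM. The lower tier therefore rests on few reads, 10 to 202 estimated counts per library. The deposited length also moved between libraries for several of these genes, for example to 935 bases for Asns in hypoxic female library 3, where most libraries had 1751 or 1766, and to 687 bases for Phgdh in hypoxic female library 1, where all others had 1643. TPM values are raised in such libraries, to 5.21 TPM for Asns and 1.40 TPM for Phgdh.

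By group mean, hypoxic males were highest for Atf4 (133 ± 6.77 CPM), Atf5, Ddit3, Psat1, Phgdh and Mthfd2, and hypoxic females for Trib3 and Asns (5.61 ± 1.28 CPM, SD, n = 3). Normoxic males were lowest for all of these 8 genes and highest for Chac1 and Aldh1l2. Atf4 in hypoxic males exceeded the next group, hypoxic females, by 20.9 CPM, more than the larger SD of the pair, while the 2 lower steps in its order were within the SD of 46.6 CPM in normoxic females. For Trib3, Ddit3 and Chac1 no step between neighbouring groups exceeded the larger SD. For Phgdh the order was hypoxic males, normoxic females, hypoxic females and normoxic males, and the middle step of 0.117 CPM was within the spread.

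**Figure D4:**
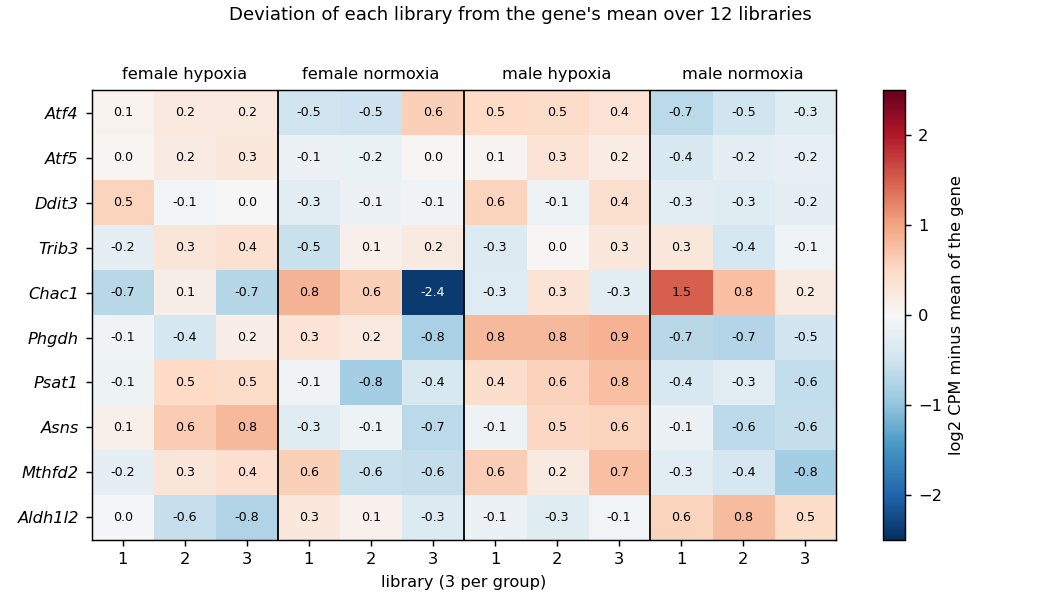
Log2 CPM of each gene in each library minus the mean of that gene over the 12 libraries, printed in each cell to 1 decimal. Chac1 in normoxic female library 3 lies farthest from its mean, at -2.4, and Phgdh is between 0.8 and 0.9 in the hypoxic males.

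Within females, 0 of the 10 genes passed, where 5.99% of all genes did. At an unadjusted p under 0.05 there were 3 (Atf5, Asns and Psat1), against 3443 of all 13960 genes tested, so such a p was common. DESeq2 called 1, Asns, and also called more of all genes in females than edgeR did. The median log2 change of the 10 genes was 0.25 in females. Within males 4 genes were called higher and 1 lower, where 8.47% and 7.10% of all genes were, 15.6% in either direction, and the median was 0.69. With 1 library left out, 1 to 7 of the 10 were called in males, the fewest without male normoxia library 1. There were 2 without male hypoxia library 3 or male normoxia library 3, and 3 without male hypoxia library 2 or male normoxia library 2. Calls among all genes also varied over these fits, and their range is given in the section on processing. DESeq2 called 8 of the 10 and 2905 of all genes in males. Without overlap between oxygen levels, 3 of the 10 genes were higher in hypoxic females (Atf5, Ddit3 and Asns; background 13.3%), and the same 3 were higher in both sexes (background 7.79%). In males 7 were higher without overlap (background 21.5%) and 1 lower (background 19.8%).

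That more genes passed in males is not by itself a difference between the sexes. Tested directly, the female effect minus the male effect passed for 0 of the 10 genes, where 0.00716% of all genes passed, a single gene. DESeq2 also called 0 of the 10. Phgdh came nearest. Its log2 change was -0.11 in females and 1.46 in males, a difference of -1.56 ± 0.439 (SE, 95% interval -2.52 to -0.60). The unadjusted p was 0.00433 and the adjusted p 0.593, and it was the only 1 of the 10 under an unadjusted p of 0.05. For Atf4 the difference was -0.69 (95% interval -1.46 to 0.09), and for Mthfd2 -0.76 (95% interval -1.78 to 0.26), so these intervals are wide. For Asns the difference was 0.10 (95% interval -0.71 to 0.91).

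Between females and males at the same oxygen level, 0 of the 10 genes passed in hypoxia (background 0.150%) and 0 in normoxia (background 0.0716%). In hypoxia 1 gene had an unadjusted p under 0.05, Phgdh, with 1.52 ± 0.309 CPM in females and 2.89 ± 0.0607 CPM in males (SD, n = 3 each) and a log2 change of -0.92 (unadjusted p = 0.0111, adjusted p = 0.335). In normoxia it was Aldh1l2, with 6.48 ± 1.34 CPM in females and 9.68 ± 1.17 CPM in males and a log2 change of -0.58 (unadjusted p = 0.0197, adjusted p = 0.667). DESeq2 called 0 of the 10 in either comparison.

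Several calls were lost without the 2 male hypoxia libraries with atrial and fat cell genes, while most folds moved little. Without both, 1 of the 10 genes was called in the averaged contrast, Ddit3 (0.59, adjusted p = 0.0305), where 1295 of all genes were called instead of 3896. The averaged log2 change was then 0.61 for Atf4 (adjusted p = 0.126), 0.79 for Psat1 (adjusted p = 0.0537) and 0.66 for Phgdh (adjusted p = 0.178). It was 0.30 for Atf5 (adjusted p = 0.0559), 0.61 for Asns (adjusted p = 0.104) and -0.61 for Aldh1l2 (adjusted p = 0.0972). In males, with 1 hypoxia library left, 0 of the 10 and 66 of all genes were called. The male log2 change was then 0.99 for Atf4 (adjusted p = 0.277), 0.33 for Atf5 (adjusted p = 0.303), 0.87 for Psat1 (adjusted p = 0.297), 1.44 for Phgdh (adjusted p = 0.22) and -0.76 for Aldh1l2 (adjusted p = 0.352). That of Asns was 0.32 (adjusted p = 0.715), the value that shrank most among the genes that rose. Leaving out female normoxia library 3 as well, 4 of the 10 and 2329 of all genes were called: Atf4 (0.85, adjusted p = 0.00252), Atf5 (0.33, adjusted p = 0.0252), Ddit3 (0.62, adjusted p = 0.025) and Aldh1l2 (-0.69, adjusted p = 0.0443). Psat1 then had a log2 change of 0.79 (adjusted p = 0.0519). Those fits have fewer libraries as well as a different make-up, and the lone male hypoxia library is assumed to vary like the other groups. Other cell type markers moved with oxygen too. Of the tested markers 4 of 5 atrial, 1 of 4 fat cell, 6 of 9 fibroblast, 4 of 8 macrophage, 6 of 8 endothelial, 5 of 5 red cell and 7 of 9 mitosis genes rose in the averaged contrast, and 1 of the atrial genes fell, where 15.0% of all genes were called higher and 12.9% lower. Ventricular cardiomyocyte markers had 0 higher and 2 lower of 8.

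In summed CPM, fibroblast markers ranged from 904 to 1805 in hypoxic females, against 725 to 1093 in normoxic females, and from 1417 to 2138 in hypoxic males, against 857 to 907 in normoxic males. Endothelial markers ranged from 1176 to 1534 in hypoxic females, against 898 to 1114 in normoxic females, and from 1156 to 1467 in hypoxic males, against 781 to 948 in normoxic males. Macrophage markers ranged from 307 to 467 in hypoxic females, against 289 to 385 in normoxic females, and from 494 to 625 in hypoxic males, against 274 to 365 in normoxic males. Fibroblast and macrophage sums thus overlapped between oxygen levels in females and not in males, and endothelial sums overlapped in neither sex. Fat cell markers ranged from 865 to 1116 in hypoxic females, against 656 to 1123 in normoxic females, and from 1050 to 1319 in hypoxic males, against 633 to 765 in normoxic males, with Plin1 at 0 in all 12 libraries. Fabp4, which is not confined to fat cells, supplied most of that sum, with 532 to 1180 CPM. Adipor2 had 87.5 to 125 CPM. The part of these cell types in the rise of the 10 genes was not tested.

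Around the 10 genes, the pathway lists did not move as one. Averaged over the sexes, the partner transcription factors and the amino acid transporters held the most calls in the upward direction, at 4 of 10 and 5 of 11 tested genes, with median log2 changes of 0.47 and 0.43. The shared background stays 15.0% higher and 12.9% lower. The other serine, glycine and folate enzymes held 1 higher and 3 lower of 19, with a median of -0.15. The remaining amino acid and redox enzymes held 0 higher and 4 lower of 15, with a median of -0.09.

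Of the partner factors, Cebpg, the C/EBP protein that pairs with ATF4 on DNA, had 41.1 ± 7.81 CPM in hypoxic females, against 27.0 ± 0.141 CPM in normoxic females, and 46.0 ± 6.57 CPM in hypoxic males, against 25.5 ± 1.18 CPM in normoxic males (SD, n = 3 each). Its averaged log2 change was 0.73 (adjusted p = 0.000747), it was called in females (adjusted p = 0.0315) and in males (adjusted p = 0.00438), and it kept its call without male hypoxia libraries 2 and 3 (0.66, adjusted p = 0.0129). The stress-induced chromatin protein gene Nupr1 rose by 0.86 (adjusted p = 0.00309), the AP-1 family gene Jdp2 by 0.85 (adjusted p = 0.00747) and the E protein gene Tcf3 by 0.53 (adjusted p = 0.00384).

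Of the transporters, the cationic and neutral amino acid exchanger Slc7a6 rose by 0.70 (adjusted p = 0.00457). The serine and alanine carrier Slc1a4 rose by 0.81 (adjusted p = 0.00497), the large neutral amino acid carrier Slc7a5 by 0.81 (adjusted p = 0.0154) and the glycine carrier Slc6a9 by 0.78 (adjusted p = 0.0171). The rise of Slc6a9 was lost with transcript length offsets (-0.04, adjusted p = 0.978) and on log2(TPM + 0.5) (0.39, or 0.16 relative to the median gene, adjusted p = 0.558). The fifth that rose was the glutamine carrier Slc1a5 (0.30, adjusted p = 0.0268) and the one that fell was the arginine carrier Slc7a1 (-0.83, adjusted p = 0.0289), both named after their values were seen. The transporter calls did not hold without male hypoxia libraries 2 and 3, a fit with a lone male hypoxia library that also called fewer of all genes. With female normoxia library 3 left out too, some transporters were called higher again, and more of all genes were called.

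Among the enzymes in these neighbouring steps, 3 of serine, glycine and folate metabolism and 4 of the amino acid and redox list fell. Shmt1, the cytosolic enzyme that turns serine to glycine, fell by 0.94 (adjusted p = 0.00193). It had 5.41 ± 0.872 CPM in hypoxic females, against 11.3 ± 2.997 CPM in normoxic females, and 5.59 ± 0.752 CPM in hypoxic males, against 9.80 ± 1.81 CPM in normoxic males. The glycine cleavage protein gene Gcsh fell by 0.38 (adjusted p = 0.00296) and the methionine synthase gene Mtr by 0.48 (adjusted p = 0.0283). The Gcsh call was lost on log2(TPM + 0.5) (0.08, or -0.15 relative to the median gene, adjusted p = 0.648). Among the amino acid and redox enzymes the cysteine-producing enzyme gene Cth fell by 2.07 (adjusted p = 0.00564), the glutathione breakdown gene Ggct by 0.73 (adjusted p = 0.00203), and the transaminase genes Gpt2 by 0.59 (adjusted p = 0.0276) and Got1 by 0.44 (adjusted p = 0.0491). Cth is a canonical ATF4 target too, and was at 5 to 10 estimated counts in hypoxic females, against 8 to 40 in normoxic females, and 6 to 18 in hypoxic males, against 24 to 78 in normoxic males.

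Upstream of ATF4, the list of eIF2 kinases, phosphatase subunits, eIF2B subunits and relays held 2 higher and 3 lower of 14, with a median of -0.10. Eif2ak4, the kinase GCN2 that senses uncharged tRNA, rose by 0.52 (adjusted p = 0.00205) and was called in females (0.61, adjusted p = 0.0214) and in males (0.43, adjusted p = 0.0384). The phosphatase subunit gene Ppp1r15b rose by 0.41 (adjusted p = 0.0146). Dele1 and Oma1, which relay mitochondrial stress to the kinase HRI, fell by 0.38 (adjusted p = 0.0173) and 0.44 (adjusted p = 0.0174). The third that fell was Eif2s1, the subunit that is phosphorylated, by 0.25 (adjusted p = 0.0374), named after its values were seen.

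In 2 further lists few genes passed. The aminoacyl-tRNA synthetases held 1 higher of 13 with a median of 0.04, the alanyl-tRNA synthetase gene Aars1 at 0.21 (adjusted p = 0.0241). The endoplasmic reticulum folding genes held 1 higher of 16 with a median of 0.15, Dnajc3 at 0.37 (adjusted p = 0.037), which encodes an inhibitor of the kinase PERK. The chaperone Hspa5 had a log2 change of -0.07 (adjusted p = 0.782) and was chosen after its values were seen. The other stress outputs held 3 higher and 1 lower of 14 with a median of 0.08. The mTORC1 inhibitor genes Ddit4 and Sesn2 rose by 0.82 (adjusted p = 0.00787) and 0.59 (adjusted p = 0.0156), the BH3-only gene Bbc3 rose by 0.59 (adjusted p = 0.0276), and the lipoprotein receptor gene Vldlr fell by 0.61 (adjusted p = 0.0161).

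**Figure D5:**
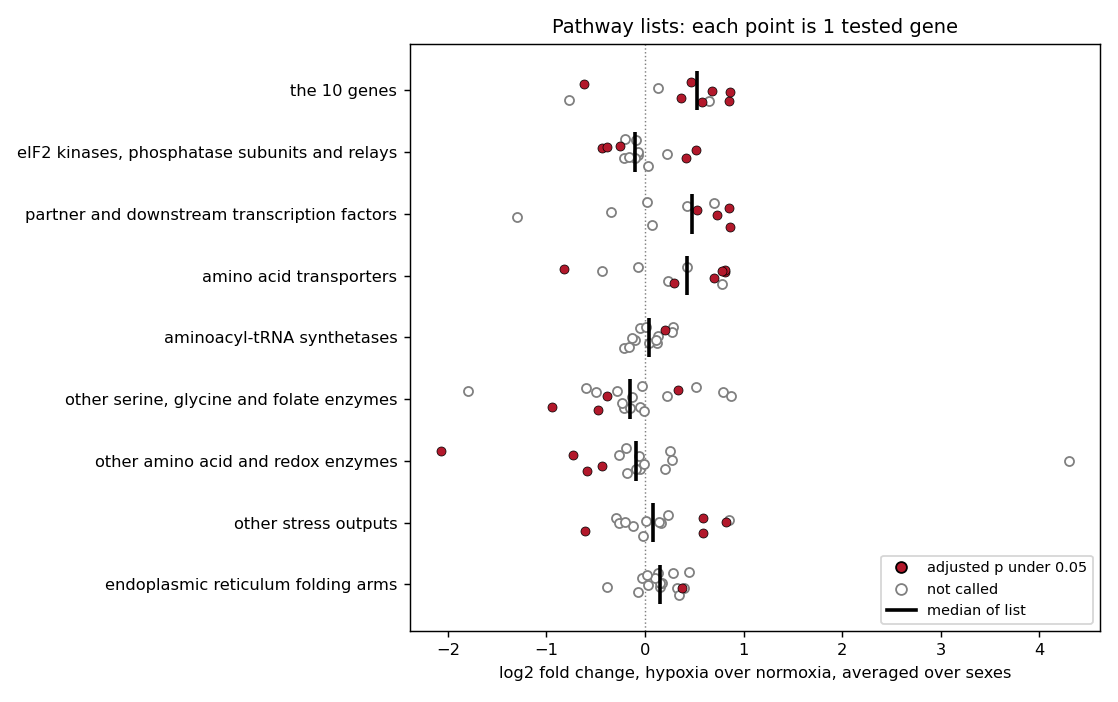
Averaged log2 fold change of hypoxia over normoxia for each tested gene of the 10-gene set and of 8 pathway lists; filled points passed an adjusted p under 0.05 and bars are list medians. The median is 0.52 for the 10 genes, 0.47 for the partner factors and 0.43 for the transporters, and the lone point beyond 4 is Pck2, which was listed at 0 in 8 of 12 libraries and was not called.

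Over the 12 libraries, the genes of the set closest to each other were Psat1 and Mthfd2, whose log2 CPM profiles differed by a root mean square of 0.26 after each gene's own mean was taken off. Atf5 and Ddit3 differed by 0.28, and Atf4 and Atf5 by 0.29. Chac1 was far from the rest, by 0.72 from Aldh1l2 and by 1.02 to 1.28 from the others. Beyond the set, among 10925 genes of sufficient level, the profiles most like Atf4 were those of Fabp4 (0.15), Qsox1 (0.16) and Cd14 (0.17), where the median gene differed by 0.50. Fabp4, a fatty acid carrier of fat and capillary endothelial cells, supplies most of the fat cell marker sum. Most like Psat1 were Tmem237 (0.15), Adgra2 (0.16) and Nucb2 (0.17), and most like Asns were Il34, Sertad4 and Higd1b (0.16, 0.16 and 0.17). These are descriptions over libraries that share the oxygen contrast.

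ATF4 binds with C/EBP proteins to a composite element, and the promoters were searched for TGATGNAA on both strands, in RefSeq windows of 250 bases before to 50 after each start site (build GRCm38.p6). Of the 10 genes, 9 had a window, 11 windows in all, and 3 genes held a match: Asns, Chac1 and Trib3. Among all genes 4.51% held one, and among all windows 3.97%. The match in Asns lies 23 to 16 bases before the start on the coding strand. That in Chac1 lies 193 to 186 bases before, and that in Trib3 15 to 22 bases after, both read on the opposite strand. These 3 stretches are printed because they set an enzyme gene that rose beside the pair that did not pass; capitals mark the match as it reads 5′ to 3′ along the gene's strand.
Asns, chr6:7693210-7693329, minus strand: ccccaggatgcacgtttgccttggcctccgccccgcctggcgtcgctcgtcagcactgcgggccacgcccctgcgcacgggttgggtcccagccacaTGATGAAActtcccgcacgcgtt
Chac1, chr2:119351022-119351141, plus strand: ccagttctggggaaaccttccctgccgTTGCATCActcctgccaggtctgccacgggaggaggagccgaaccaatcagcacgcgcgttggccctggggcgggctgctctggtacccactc
Trib3, chr2:152344029-152344056, minus strand: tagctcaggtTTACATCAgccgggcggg
The windows of Atf4, Atf5, Ddit3, Phgdh, Psat1 and Mthfd2 did not hold these letters. In the averaged contrast 1 of the 3 genes with a match was called (Asns), and 5 of the 6 without. A match is a description of letters and not a binding site.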

How the data were processed

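Messenger RNA was sequenced from 12 ventricular libraries, 3 in each combination of sex and oxygen, after preparation with a directional kit per the labels' protocols. FastQC, Salmon and the build GRCm39 are named in the submitters' processing notes, without versions. The authors deposited, per the file headers, estimated counts per gene that were not scaled from abundance. Beside them the deposited table holds TPM (per length and library size), summing to between 889905 and 926060 per library per the file headers and values, and an effective transcript length. Symbols came from GENCODE vM21 and RefSeq tables of another build and were found for 99.3% of genes, so no coordinates of the counted genes are given.

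Estimated counts were rounded to whole numbers. edgeR 4.0.16 in R 4.3.3 kept 13960 genes with filterByExpr, scaled libraries with TMM and fitted 1 mean per group over all 12 libraries, leaving 8 residual degrees of freedom. Each contrast was tested with the two-sided quasi-likelihood F test, with Benjamini-Hochberg adjustment over all genes and a threshold of 0.05. CPM values use TMM-scaled library sizes. Intervals are 95% intervals of the fit. The procedure was tested on simulated data. Replicate libraries differed by more than sampling noise. Alternatives were DESeq2 1.42.0, limma 3.58.1 voom, RLE and upper quartile factors, no filter, at least 50 counts in 3 libraries, removal of mitochondrial and haemoglobin genes, transcript length offsets, limma on log2(TPM + 0.5), a replicate block, the compared libraries alone and libraries left out.

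The 10 genes and all lists were chosen with earlier results of these data known. Each list names its called genes in the averaged contrast, at most 4 by smallest adjusted p. A gene that this rule names is not reported here. Genes most like Atf4, Psat1 and Asns are the 3 nearest log2 CPM profiles with a mean of at least 1. Of 198 listed genes 1 was not found. Promoter sequences are from RefSeq, build GRCm38.p6; Aldh1l2 had no entry there.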

Additional observations from a re-analysis of the deposited data

How the results depend on the processing

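Numbers in a group are shared by the labels, but same-numbered libraries did not deviate together (correlations from -0.0454 to 0.186), so they were not treated as pairs. With the replicate number as a block, 6 of the 10 genes were called in the averaged contrast, 5 in males and 0 in females. Phgdh was lost in the averaged contrast (0.68, adjusted p = 0.0623). Of all genes, the fit without the block called 27.9% averaged, 15.6% in males and 5.99% in females. For females against males in normoxia, 6 of all genes were called with the block, against 10 without it.

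Without male hypoxia libraries 2 and 3, the averaged contrast called 1295 genes and 1 of the 10, males 66 and 0, females 457, and the interaction 7. With female normoxia library 3 left out too, the counts were 2329 and 4 averaged, 176 and 1 in males, 1 of the 10 in females, 6 for the interaction and 12 for females against males in hypoxia. Leaving out 1 library at a time gave 2685 to 4635 genes and 4 to 8 of the 10 averaged, 55 to 2081 and 0 to 3 in females, 877 to 3036 and 1 to 7 in males, and 1 to 5 for the interaction. For females against males it gave 9 to 40 genes in hypoxia and 5 to 10 in normoxia. The lowest female count was without female hypoxia library 3 and the highest without female hypoxia library 1.

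DESeq2 called 8 of the 10 and 2905 genes in males, 1 of the 10 and 1693 genes in females, 68 genes for the interaction, and 184 and 58 for females against males in hypoxia and in normoxia. Length offsets gave 1265 genes and 3 of the 10 in males, 362 genes in females and 13 for females against males in hypoxia. log2(TPM + 0.5) gave 3690 genes in males and 4 for the interaction, voom 2 and no filter 6. The compared libraries alone gave 40 genes in females, 12 for females against males in hypoxia and 6 in normoxia. None of the 10 genes passed the interaction in any of these fits. The averaged Aldh1l2 call was lost with length offsets and with TPM, and that of Phgdh with upper quartile factors (0.052), no filter (0.0772) and length offsets (0.051). Mthfd2 passed under DESeq2 (0.0326), voom (0.0388), length offsets (0.0491) and TPM (0.00449).

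Signs turned only for changes that had not been called, apart from Slc6a9 (-0.0364 with length offsets) and Gcsh (0.0790 with TPM, -0.15 relative to the median gene). Trib3 turned to -0.0387 averaged and -0.276 in males without male hypoxia libraries 2 and 3, also -0.276 with female normoxia library 3 left out too, and ranged from -0.0902 to 0.273 in males with 1 library left out. Phgdh in females was 0.388 with length offsets and 0.342 with TPM, and ranged from -0.390 to 0.0945 with 1 library left out; Aldh1l2 in females was 0.0118 with TPM. The interaction of Asns was -0.0450 with TPM and ranged from -0.0849 to 0.277, that of Trib3 from -0.0717 to 0.300 and that of Chac1 from -0.120 to 0.838 with 1 library left out. The causes were not tested.

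TPM shifts the median gene by 0.15 in females and 0.32 in males. It moved the log2 ratio of group means by more than the spread between replicates for the genes below, with the TPM ratio in brackets. In females these were Atf5 (0.483), Asns (1.40) and Phgdh (0.624). In males they were Atf4 (1.34), Atf5 (0.894), Trib3 (0.50), Asns (1.44), Psat1 (1.73), Phgdh (1.88) and Mthfd2 (1.43). For Aldh1l2 the TPM ratios were 0.0177 in females and -0.221 in males. The other ratios moved by less than that spread. Depth limits the lower tier most: Phgdh rests on 15 to 60 counts per library and Chac1 on 10 to 145.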
